A study of Mus musculus with 6 samples.

Results

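The mouse egg coat genes Zp1, Zp2 and Zp3 were taken by symbol from a table of 25239 genes counted in 6 libraries of single oocytes, and all 3 had counts in every library. The oocytes came from CD-1 females 4 to 6 weeks old, CD-1 being an outbred stock, and were collected at the germinal vesicle (GV) stage, at which the nucleus is intact and meiosis is still arrested. While still enclosed in cumulus cells (the somatic cells around the oocyte) they had been injected with water, for 3 libraries, or with a mixture of phthalate metabolites, for 3. Phthalates are plasticizers, and the metabolites are the compounds the body makes from them. The labels give no dose, no composition of the mixture and no time in culture. Both groups shared the rest of the handling: maturation medium with 10% fetal bovine serum, 200 mIU/mL follicle-stimulating hormone and 50 µg/mL sodium pyruvate. The comparison asks what the injected mixture does to oocyte transcripts.

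The zona pellucida is the extracellular coat of the egg. In the mouse it is built from the glycoproteins ZP1, ZP2 and ZP3, which the growing oocyte makes and secretes. ZP2 and ZP3 form the filaments and ZP1 cross-links them. Sperm bind the N-terminal part of ZP2, which the protease ovastacin cuts after fertilization so that further sperm no longer bind. The transcription factor FIGLA is known to activate all 3 genes in the oocyte through an E-box (the letters CANNTG) in their promoters.

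The labels name no animal and do not settle if each library of a group is a different oocyte, so each group was treated as 1 sample and no difference between the groups was tested. Library totals ran from 252267 to 300917 gene counts. Counts are given as CPM, a count per 1000000 gene counts of its library. Intervals are exact 95% intervals for counting error only. They are too narrow, because PCR copies are not independent molecules and from 68.0% to 71.1% of the counts from 1 to 20 in a library were even, as when both mates of a pair are counted. The labelled cell type was visible in its markers: all 10 oocyte markers had counts, in all 24858, 20750 and 22800 CPM in the water libraries, against 22139, 19994 and 21319 CPM in those of phthalate, and the groups overlapped. Their median log2 ratio of phthalate over water was -0.15, beside 0.0089 over all genes that passed a filter on low counts. Of the 10 markers 9 were below 0, beside 2267 of all 4644 genes that passed. The most abundant of them were Gdf9, the oocyte growth factor, and Ooep, of the subcortical maternal complex, with 2988 counts in water and 2847 in phthalate. Of the 10, 1 was past 1.5-fold lower, beside 8.14% of all genes. This was Kit, which encodes the receptor for the kit ligand of granulosa cells, at a log2 ratio of -0.63, but it was not past the fold without water library 3 (-0.26), without phthalate library 2 (-0.48) or with ERCC counts as library size (-0.52). Of 20 cumulus and granulosa markers, 10 had no count, among them the defining genes Amh, Foxl2 and Gja1. Their sum was 13 to 37 counts per water library and 10 to 27 per phthalate library, mostly from Nr5a2 (64 counts in water and 39 in phthalate, past 1.5-fold lower at a log2 ratio of -0.64, from -1.0 to -0.21 with 1 library left out). Their part in the levels of the zona genes was not tested. Cyp19a1, which encodes aromatase, had 5 counts in water and 1 in phthalate, and Cyp11a1, with the same mean count, 0 and 6. Fshr (0 and 3), Inha, Inhba and Inhbb (each 0 and 2) and Fst (0 and 1) had counts only in phthalate. Has2 and Kitl (each 2 and 0) had counts only in water. The ribosomal RNA precursor Rn45s took 2.02% to 2.35% of the counts of a water library and 2.89% to 3.54% of a phthalate library, and its part in the levels of the zona genes was not tested. Theca and stroma markers had at most 2 counts in a library, all from Dcn, and of 6 blood and endothelium markers 5 had none, the exception being Pecam1 with 45 and 32 counts.

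Where the 3 genes lie was read from GENCODE M21 on GRCm38, the assembly that UCSC calls mm10. Zp1 (ENSMUSG00000024734) is on the minus strand of chr19:10914287-10920632, with 12 exons and a transcript of 1963 bases for 623 residues. Zp2 (ENSMUSG00000030911) is on the minus strand of chr7:120126772-120145291, with 18 exons, 2221 bases and 713 residues. Zp3 (ENSMUSG00000004948) is on the plus strand of chr5:135980099-135988624, with 8 exons, 1323 bases and 424 residues. In this annotation no other gene overlaps any of them, so counting without strand would mix no annotated neighbour into their values.

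These messages are almost all coding sequence. The 3′ untranslated region was 34 bases in Zp1, 49 in Zp2 and 13 in Zp3. In Zp3 the stop codon lies inside AATAAA, the signal that precedes the poly(A) tail, while 8 bases separate them in Zp1 and 11 in Zp2. The stretch that holds both is shown because the tail added just after it is what the oligo(dT) primer of the library protocol binds. Capitals mark the stop codon and AATAAA, read 5′ to 3′ along the transcript. The stretches cover chr19:10914299-10914328 (minus strand), chr7:120132365-120132394 (minus strand) and chr5:135988595-135988624 (plus strand).
Zp1: tatTAAatggactcAATAAAccattgtttg
Zp2: cacTGAttggacttgcaAATAAAgagactg
Zp3: tatcccttccgcAATAAAagaagaaactca

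Of the 3 promoters, the RefSeq promoter table (GRCm38.p6) held that of Zp3, shown here because FIGLA acts through it. The 250 bases before the RefSeq start site, chr5:135979855-135980104 on the plus strand, hold the E-box CACGTG from 181 to 176 bases before the start and TATAA from 29 to 25 bases before it, with another TATAA from 160 to 156. Capitals mark CACGTG and TATAA.
Zp3 upstream: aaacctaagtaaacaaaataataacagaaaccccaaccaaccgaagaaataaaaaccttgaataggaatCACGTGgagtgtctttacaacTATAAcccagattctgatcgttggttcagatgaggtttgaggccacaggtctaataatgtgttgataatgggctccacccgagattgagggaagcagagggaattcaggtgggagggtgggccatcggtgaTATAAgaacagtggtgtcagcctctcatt

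Searched on both strands, the general E-box CANNTG occurred in 66.2% of all 32851 upstream windows of this length, CACGTG in 6.02% and TATAA in 22.8%. The Zp3 window holds CANNTG at 3 places, of which CACGTG is one, the others being CAGATG and CAGGTG. These matches describe the letters and show no binding.

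Zp3 was the most abundant of the 3 transcripts. Its level was 3195, 3336 and 3041 CPM in water libraries 1, 2 and 3, and 2279, 3128 and 4292 CPM in phthalate libraries 1, 2 and 3. The water libraries sat close together, and the phthalate libraries held both the lowest and the highest value of all 6. By count Zp3 ranked between 12 and 34 among all genes of a library. Over the 6 libraries its mean CPM was next below that of Spin1, a chromatin reader, and next above that of Zfp57, which guards imprinted genes.

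Zp2 had 1789, 1821 and 1663 CPM in the water libraries, against 1047, 1230 and 1866 CPM in those of phthalate. Phthalate libraries 1 and 2 were below every water library and phthalate library 3 above every one, so the groups overlapped. Its rank within a library ran from 44 to 100. Its neighbours in mean CPM were Pkd2l2, a polycystin family gene, above and Oog3, of the oogenesin family, below.

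Zp1 was the scarcest of the 3 and varied least over all 6 libraries, though not over the water libraries alone. It had 891, 997 and 1025 CPM in the water libraries, against 975, 980 and 964 CPM in those of phthalate. All 6 counting intervals overlapped, and its rank ran from 104 to 133. Lamb1, which encodes a laminin chain, was next above it in mean CPM and Eif2s2, which encodes a translation initiation subunit, next below.

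**Figure D1:**
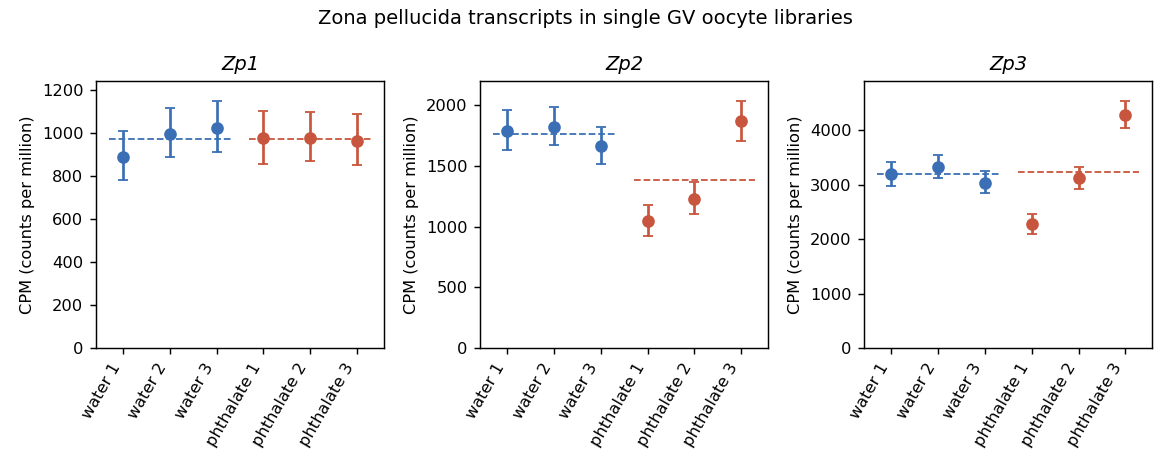
CPM of Zp1, Zp2 and Zp3 (y axis, linear, from 0) in each of the 6 libraries (x axis), with exact 95% counting intervals as bars and the group mean as a dashed line. Zp1 stays between 891 and 1025 CPM, while phthalate library 1 is low and phthalate library 3 high for Zp2 and Zp3.

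To compare the genes with each other, CPM was divided by transcript length in kilobases. On this scale the mean level over the 6 libraries was 2428 ± 489 for Zp3, 707 ± 156 for Zp2 and 495 ± 23.1 for Zp1 (SD, n = 6 libraries). Zp3 stood above both others in every library, with its lowest value of 1723 against a highest Zp2 value of 840. Zp2 and Zp1 are neighbours in this order whose ranges overlapped, from 471 to 840 and from 454 to 522. In phthalate library 1 they changed places on this scale, with 471 for Zp2 and 497 for Zp1. By count Zp2 stayed above Zp1 in that library (264 and 246), and their counting intervals overlapped. The lengths are those of 1 transcript per gene, and Zp2 has an annotated transcript with another 3′ end that counts per gene cannot separate.

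Together the 3 genes took 0.587%, 0.615% and 0.573% of the counts of the water libraries and 0.430%, 0.534% and 0.712% of those of the phthalate libraries. The counting intervals of the phthalate values did not overlap one another, being 0.405% to 0.456%, 0.508% to 0.561% and 0.681% to 0.744%. Summed by group, the share was 0.592% in water (interval 0.576% to 0.609%) and 0.562% in phthalate (0.546% to 0.578%). This is a share of each library's counts, so fewer zona transcripts and more of other transcripts cannot be told apart. Gene counts per count of the ERCC spike-in RNAs, a control mixture of known transcripts, ran from 358 to 907 in water libraries and from 569 to 942 in phthalate libraries.

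As a group ratio, Zp2 was lower in phthalate while Zp1 and Zp3 were near 0. Zp2 had 1502 water counts (interval 1427 to 1580) and 1140 phthalate counts (1075 to 1208), a log2 ratio of phthalate over water of -0.33 (interval -0.44 to -0.21). Counted as read pairs the interval was -0.49 to -0.17. Zp3 had 2728 (2627 to 2832) and 2678 (2578 to 2781) counts, a log2 ratio of 0.045 (-0.032 to 0.12). Zp1 had 831 (775 to 889) and 800 (746 to 857) counts, a log2 ratio of 0.017 (-0.12 to 0.16). For the sum of the 3 the log2 ratio was -0.060 (-0.12 to -0.0022), and as read pairs the interval reached from -0.14 to 0.022.

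None of the 3 genes was past a 1.5-fold difference and none had groups that did not overlap. Over all 4644 genes that passed the filter on low counts, 6.96% were past 1.5-fold higher in phthalate, 8.14% past 1.5-fold lower, and 10.1% had library values that did not overlap between groups. Among the 448 genes averaging 100 counts or more, as the zona genes do, 1.34% were past 1.5-fold in either direction. With ERCC counts as library size, 482 genes were higher and 241 lower, in place of 323 and 378.

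The ratios of Zp2, Zp3 and the sum moved most when phthalate library 1 or 3 was left out. Without phthalate library 3, Zp2 was at -0.65 and past 1.5-fold lower, Zp3 at -0.25 and the sum at -0.32. Without phthalate library 1, Zp2 was at -0.16, Zp3 at 0.24 and the sum at 0.099. Zp2 stayed below 0 under all 14 alternatives. Of these, halving counts to read pairs cannot change a ratio, and leaving out Rn45s kept that of Zp2 at -0.33. The ratio of Zp3 took either sign, and so did that of Zp1, from -0.055 without water library 1 to 0.13 with ERCC counts as library size.

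**Figure D2:**
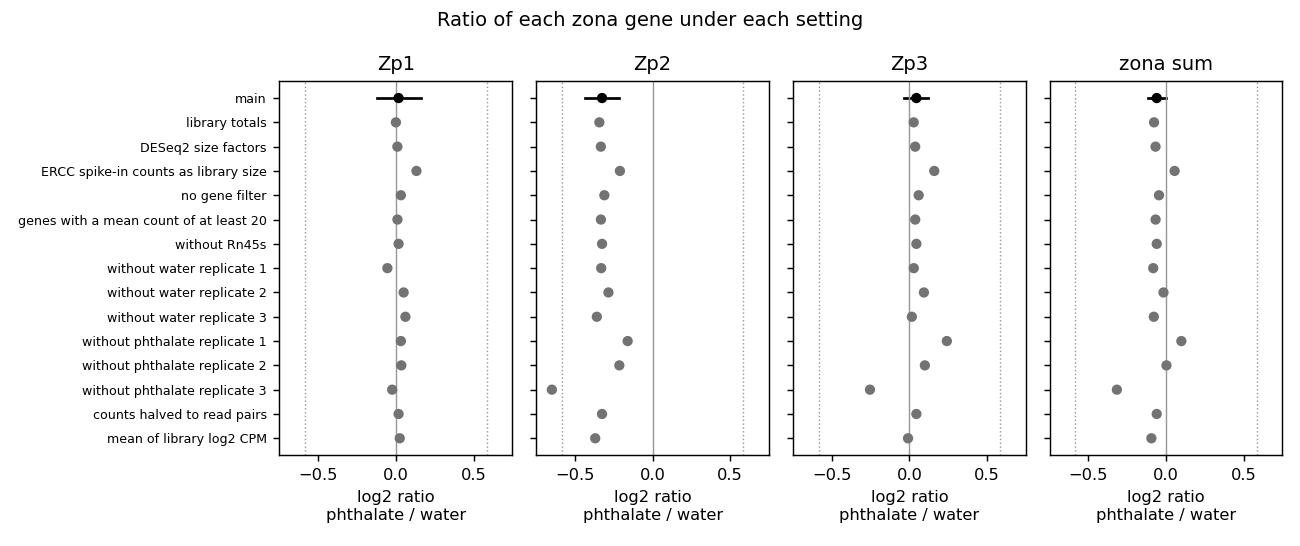
Log2 ratio of phthalate over water (x axis) for Zp1, Zp2, Zp3 and their sum under each processing setting (y axis), with the exact 95% counting interval on the main value and dotted lines at 1.5-fold. Zp2 lies left of 0 in every row and passes the 1.5-fold line without phthalate library 3, at -0.65, while Zp3 ranges from -0.25 to 0.24 with the library that is left out.

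**Figure D3:**
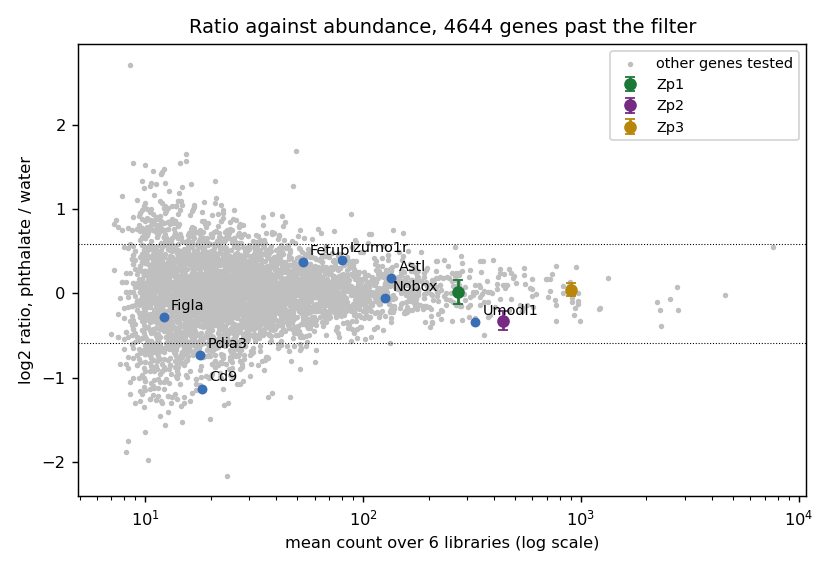
Log2 ratio of phthalate over water (y axis) against mean count over the 6 libraries (x axis, log scale) for the 4644 genes that passed the filter (grey). The zona genes are shown with counting intervals, genes of related function are labelled, and dotted lines mark 1.5-fold. Zp2 is at -0.33, Umodl1 beside it at -0.34, and Cd9 and Pdia3 lie below the lower line.

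A ratio between 2 genes of a library needs no scaling between libraries. Zp2 counts per Zp3 count were 0.560, 0.546 and 0.547 in the water libraries, against 0.459, 0.393 and 0.435 in those of phthalate. The lowest water value was above the highest phthalate value, so these groups did not overlap, although the levels of both genes did. Summed by group the ratio was 0.551 in water (interval 0.517 to 0.587, as read pairs 0.503 to 0.602) and 0.426 in phthalate (0.397 to 0.456, as read pairs 0.385 to 0.470), a log2 difference of -0.37. Leaving out 1 library gave from -0.40 to -0.31, and phthalate library 2 alone against the water group -0.49.

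This pair was picked from the 3 possible pairs after its values were seen. Over all 15576 pairs of the 177 genes that averaged 200 counts or more, the library ratios of 12.3% did not overlap between groups. A log2 difference of at least the size of that for Zp2 and Zp3 was found in 19.7% of these pairs, and the median size was 0.20. Read against these shares, 1 of 3 zona pairs without overlap is no result particular to Zp2 and Zp3.

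The other pairs overlapped. Zp1 counts per Zp3 count were 0.279, 0.299 and 0.337 in the water libraries, against 0.428, 0.313 and 0.225 in those of phthalate. Zp1 counts per Zp2 count were 0.498, 0.547 and 0.617 in the water libraries, against 0.932, 0.796 and 0.517 in those of phthalate. In both pairs phthalate library 1 was highest, the library in which Zp2 and Zp3 were lowest.

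**Figure D4:**
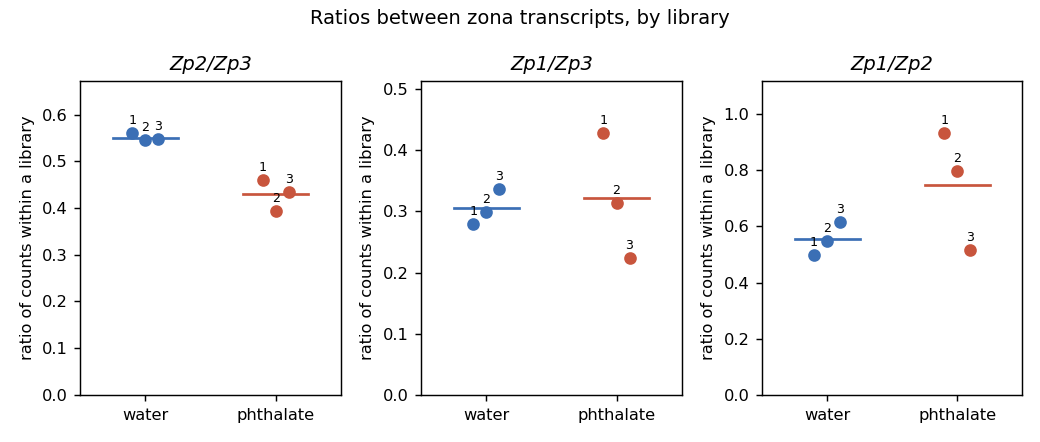
Ratio of counts within a library (y axis, from 0) for the pairs Zp2/Zp3, Zp1/Zp3 and Zp1/Zp2, with 1 numbered point per library and a line at the group mean. Zp2/Zp3 is 0.546 to 0.560 in water and 0.393 to 0.459 in phthalate, and the groups overlap in the other pairs.

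By composition, Zp2 made up 29.7% of the zona counts of the water group (interval 28.4% to 31.0%) and 24.7% of those of the phthalate group (23.4% to 26.0%). The share was 30.4%, 29.6% and 29.0% in the water libraries, against 24.3%, 23.0% and 26.2% in those of phthalate. Zp3 made up 53.9% (52.5% to 55.3%) and 58.0% (56.6% to 59.4%). Its share was 53.0% in phthalate library 1, below the water libraries at 54.4%, 54.2% and 53.1%, and 58.6% and 60.3% in the other phthalate libraries. Zp1 made up 16.4% (15.4% to 17.5%) and 17.3% (16.2% to 18.4%), and its phthalate libraries ran from 13.5% to 22.7%.

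The spread between libraries was wider in phthalate than in water for Zp2 and Zp3, and narrower for Zp1. In the water group the highest CPM was 1.09 times the lowest for Zp2, 1.10 times for Zp3 and 1.15 times for Zp1. In the phthalate group it was 1.78 times for Zp2, 1.88 times for Zp3 and 1.02 times for Zp1. Of 447 other genes averaging 100 counts or more, 56 had a phthalate range at least as wide as that of Zp2 and 43 one as wide as that of Zp3. The range of Zp1 in phthalate was narrower than that of 446 of the 447 in CPM, but this depended on the scale, since after TMM scaling its phthalate libraries were at 951, 958 and 1031.

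As the SD of log2 CPM after TMM scaling (edgeR's scaling between libraries), Zp2 had 0.073 in water and 0.50 in phthalate, and Zp3 0.079 and 0.52. Zp1 had 0.14 and 0.065. Over the 448 genes the median SD was 0.18 in water and 0.24 in phthalate, so the phthalate libraries differed more from each other in general. Among the genes whose average count was 0.5 to 2 times its own, the phthalate SD of Zp2 was above that of 86.2% of 130 genes and that of Zp3 above 87.5% of 48 genes. In water the SD of Zp2 was above that of 13.8% and that of Zp3 above 20.8% of the same genes. For Zp1, with 246 such genes, the SD was above that of 35.0% in water and 8.54% in phthalate. Its SD over all 6 libraries, 0.096, was above that of 3.66%.

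Library properties differed among the libraries of both groups. Phthalate libraries 1, 2 and 3 had 19, 27 and 10 cumulus and granulosa marker counts, 443, 498 and 292 ERCC counts, and 9358, 9627 and 9190 genes with a count. Water libraries 1, 2 and 3 had 37, 23 and 13 such marker counts, 753, 338 and 313 ERCC counts, and 9615, 9463 and 9450 genes with a count. Phthalate library 3 had the TMM factor farthest from 1, at 0.935. The part of these properties in the levels of Zp2 and Zp3 was not tested.

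**Figure D5:**
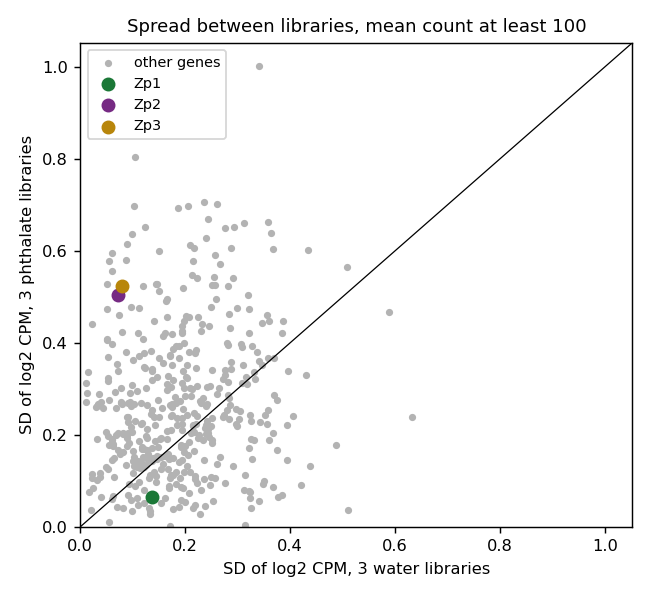
SD of log2 CPM (TMM-scaled) over the 3 phthalate libraries (y axis) against that over the 3 water libraries (x axis) for 448 genes averaging 100 counts or more, with a line of equality. Zp2 (0.073 and 0.50) and Zp3 (0.079 and 0.52) lie far above the line, and Zp1 (0.14 and 0.065) below it.

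Across the 6 libraries Zp2 and Zp3 followed one another more closely than either followed Zp1. On the same scale Pearson's r was 0.83 for Zp2 and Zp3, 0.42 for Zp1 and Zp3 and 0.28 for Zp1 and Zp2, as a description over 6 libraries, the genes of a library sharing its size. Likeness was measured as the root-mean-square (RMS) difference of log2 CPM profiles centred on their means, among 447 genes averaging 100 counts or more. By this measure Zp3 was the 40th nearest gene to Zp2, and Zp2 the 56th nearest to Zp3.

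The genes nearest to Zp3 were the predicted gene Gm13084 (RMS difference 0.069, r = 0.98), the ribosomal protein gene Rpl5 (0.073, r = 0.99) and Psmc4, a proteasome subunit gene (0.076, r = 0.998). Psmc4 had 371, 372 and 345 CPM in the water libraries, against 285, 359 and 451 CPM in those of phthalate, the same rank order of phthalate libraries as Zp3. Nearest to Zp2 were Sugt1, which encodes a co-chaperone (0.088, r = 0.98), Eef1a1, which encodes a translation elongation factor (0.096, r = 0.96), and Pecr, an enzyme gene of fatty acid chain elongation (0.13, r = 0.94). Eef1a1 had 1440, 1628 and 1371 CPM in the water libraries, against 983, 959 and 1673 CPM in those of phthalate, and like Zp2 its highest value was in phthalate library 3. Nearest to Zp1 were Gm11545 (0.051), Tet3, which encodes an enzyme that oxidizes methylated DNA (0.064), and Kif23, a kinesin gene (0.069).

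Among the 8 genes on the list of zona gene transcription, 4 passed the filter. Of these 4, 0 were past 1.5-fold in either direction, beside 6.96% of all genes higher and 8.14% lower. The median log2 ratio of the 4 was 0.046, beside 0.0089 over all genes that passed the filter. Nobox, a homeobox factor of oocyte growth, had 129, 117 and 150 counts in the water libraries, against 114, 131 and 118 in those of phthalate, and Lhx8, another such factor, 136 and 143 counts by group. Figla, named here for its role outside the rule of abundance, had 18, 16 and 7 counts in the water libraries, against 0, 17 and 15 in those of phthalate. The library with no Figla count was phthalate library 1, where Zp2 and Zp3 were lowest and Zp1, at 975 CPM, was within its water range. In water library 3, with 7 Figla counts, Zp1, Zp2 and Zp3 had 1025, 1663 and 3041 CPM. In phthalate library 1 the floor of 3 counts is 11.9 CPM. The lowest other library for Figla, water library 3, had 24.7 CPM from 7 counts, so both values are near the floor. Whether the levels of Figla and of the zona genes are related was not tested. By group Figla had 41 and 32 counts, a log2 ratio of -0.29 whose interval included 0. Sohlh1 had no count.

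The list of zona cleavage and egg surface genes had 5 of 9 genes past the filter, 0 past 1.5-fold higher and 1 lower, beside 6.96% and 8.14% of all genes, with a median log2 ratio of 0.18. The gene past the fold was Cd9, which encodes the tetraspanin of the egg membrane needed for sperm fusion. Cd9 had 31, 30 and 15 counts in the water libraries, against 9, 10 and 14 in those of phthalate. The log2 ratio was -1.13 (-1.77 to -0.52), between -1.39 and -0.94 with 1 library left out. In CPM the lowest water library (52.9) was just above the highest phthalate library (50.9), and after TMM scaling the groups overlapped.

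Astl, which encodes ovastacin, the protease that cuts ZP2, had 135, 141 and 114 counts in the water libraries, against 143, 163 and 114 in those of phthalate. Its log2 ratio was 0.18 (-0.023 to 0.38). Fetub encodes fetuin-B, the inhibitor of ovastacin, and was named for that role. It had 142 and 175 counts by group and a log2 ratio of 0.37 (0.046 to 0.70), from 0.16 to 0.49 with 1 library left out. Izumo1r, which encodes Juno, the egg receptor of the sperm protein IZUMO1, had 214 and 269 counts and a log2 ratio of 0.40 (0.14 to 0.67). The groups overlapped for Astl and Izumo1r. For Fetub the highest water library had 186.1 CPM and the lowest phthalate library 186.4 CPM, and after TMM scaling the groups overlapped.

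Secretion of the coat begins in the endoplasmic reticulum. Of 19 genes for entry into it and for N-glycan transfer, 16 passed the filter, 0 were past 1.5-fold higher and 1 lower, and the median log2 ratio was -0.0043. With 8.14% of all genes past 1.5-fold lower and 10.1% without overlap, 1 of 16 is near the background. The gene past the fold was Pdia3, a disulfide isomerase of glycoproteins, with 22, 25 and 21 counts in the water libraries, against 11, 18 and 10 in those of phthalate. Its groups did not overlap, and its log2 ratio was -0.73 (-1.34 to -0.14). Sec61g, of the translocation channel, had 328 and 315 counts by group, and Calr, the lectin chaperone calreticulin, 241 and 299 (log2 ratio 0.38, 0.13 to 0.63). The Calr ratio ran from 0.22 to 0.54 with 1 library left out. Of 23 Golgi glycosylation genes 4 passed the filter, with a median log2 ratio of -0.075. Of these 4, 0 were past 1.5-fold, beside 6.96% of all genes higher and 8.14% lower. Mgat4a, which branches N-glycans, had 68 and 47 counts, and Ggta1, which adds terminal galactose, 54 and 47.

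Among 12 other genes with a ZP domain, the fold through which zona proteins polymerize, 1 passed the filter, Umodl1 (uromodulin-like 1). It had 1191, 1363 and 1388 CPM in the water libraries, against 884, 793 and 1408 CPM in those of phthalate. As for Zp2, phthalate libraries 1 and 2 were below all water libraries and phthalate library 3 above. Its log2 ratio was -0.34 (-0.47 to -0.21), -0.69 and past 1.5-fold without phthalate library 3, and -0.15 without phthalate library 2. Tgfbr3, a co-receptor, had 26 and 14 counts. The pseudogene Zp4-ps had 2, 2 and 2 counts in the water libraries, against 4, 0 and 0 in those of phthalate, and 6 of the list had no count.

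The list of 8 genes known from sperm, by which they bind or cross the zona, gave 4 counts for water and 18 for phthalate, and 0 of its genes passed the filter. Spam1, the sperm hyaluronidase, had 4 and 8 counts, and Zp3r 0 and 5.

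Of 7 other secreted oocyte proteins all 7 passed the filter. Past 1.5-fold were 0, beside 6.96% of all genes higher and 8.14% lower, and the median log2 ratio of the 7 was -0.062. Their sum was 16379, 12462 and 14303 CPM in the water libraries, against 14873, 12761 and 12873 CPM in those of phthalate, which all lay within the water range. Gdf9 gave most of it with 8040 and 7327 counts by group (log2 ratio -0.062), and Oosp1, an oocyte-secreted protein, had 1864 and 1734.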

How the data were processed

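GV oocytes were profiled singly with a Smart-seq3 workflow and read as pairs of 150 bases, per the labels' protocols. The authors deposited raw counts, as whole numbers by gene symbol, with 92 ERCC spike-in rows. The submitters' processing notes name cutadapt, Trimmomatic, HISAT2, DESeq2 and mm10. Counter, annotation, strand and use of molecular identifiers are not given in the sources used here.

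ERCC rows stayed out of totals (252267 to 300917). Genes were filtered with filterByExpr (minimum count 10, total 15) and scaled by TMM (edgeR 4.0.16, R 4.3.3). Group counts were summed, and the log2 ratio given with no pseudocount and an exact interval. Sums under 3 counts were set to 3. Profiles and spread used a pseudocount of 0.5. The ratio code was tested on simulated data. Each group was treated as 1 sample, so no test was made. Library pairs of a group differed by a chi-square per degree of freedom of 1.17 to 2.31 on read pairs, above the 1 of sampling noise.

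Alternatives were library totals, DESeq2 1.42.0 size factors, ERCC counts, other filters, no Rn45s, read pairs, library means, and each library left out. Of a list, genes past 1.5-fold and the 2 most abundant were named. Of like genes, the 3 nearest in pattern and the neighbours in level were named. Members and lists were chosen with earlier results of these data known. No column went unused, and the Zp1 and Zp2 promoters are not analysed here.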

Additional observations from a re-analysis of the deposited data

How the results depend on the processing

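Leaving out 1 library gave log2 ratios from -0.65 to -0.16 for Zp2, from -0.25 to 0.24 for Zp3 and from -0.32 to 0.099 for the zona sum, and differences in the Zp1 share of zona counts from -0.74 to 3.69 percentage points. Library size from ERCC counts moved the ratio to -0.21 for Zp2, 0.16 for Zp3 and 0.055 for the sum. It adds the same amount to every gene, and the median of all genes moved by 0.12. Genes past 1.5-fold numbered 1596 higher and 1790 lower without a filter, 109 and 115 with a mean count of at least 20, and 53 and 76 at 2-fold; with ERCC counts 241 were lower. The first 2 changes come with more or fewer genes kept, the third with the wider fold. The other scalings, and the mean of library log2 CPM (-0.0082 for Zp3), left the ratios of the members within their counting intervals. Settings for the Zp2 to Zp3 ratio, for list medians and for single list genes were chosen after seeing the data. The same holds for the numbers of genes past 1.5-fold with ERCC counts as library size, without Rn45s and with each library left out. Kit was no longer past 1.5-fold without water library 3 (-0.26), without phthalate library 2 (-0.48) or with ERCC counts (-0.52). No paired analysis was possible because no label ties the replicate numbers of the groups to a shared animal, batch or day, and the values carry no test.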

Other observations

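Set against each of the 176 other genes averaging 200 counts or more, within-library ratios of Zp2 were lower in all phthalate libraries than in all water libraries for 39 genes (22.2%) and higher for 0. For Zp3 the ratio was lower for 3 genes and higher for 11 (6.25%), and for Zp1 lower for 7 and higher for 2. Over all 15576 pairs of such genes, 12.3% had ratios that did not overlap between groups, both directions counted together. The ratios of a gene share its counts and are given as a description.

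Per ERCC count, Zp3 had 1.14, 2.97 and 2.76 counts in the water libraries, against 1.30, 1.85 and 4.04 in those of phthalate. Zp1, steady as a share of the library, had 0.319, 0.888 and 0.930 in the water libraries, against 0.555, 0.580 and 0.908 in those of phthalate. Zp2 had 0.640, 1.62 and 1.51 in the water libraries, against 0.596, 0.729 and 1.76 in those of phthalate. On this scale water library 1 was lowest for Zp1 and Zp3 and phthalate library 1 for Zp2.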
